A study of Mus musculus with 16 samples.

Results

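The cytosolic ribosomal protein genes are the genes of the protein part of the ribosome that translates nuclear-encoded messages. They were followed here across 16 Affymetrix arrays of mouse CD4+ T cells. Members were the genes whose only platform symbol is Rpl, Rps or Rplp followed by a number, with the letters a, l, x or y allowed after it, and each gene was read through the probe set that was brightest on average. The rule found 48 of the 18193 genes named on the array. These were 20 genes of the small subunit, 22 of the large subunit, of which Rplp0 and Rplp2 belong to its stalk, and 6 paralogs, which are separate genes that resemble a core ribosomal protein gene. The symbols of all 48 genes were also those of RefSeq. Many further ribosomal protein genes were no members, because their probe sets carry several symbols (a gene together with its pseudogenes or copies).

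The arrays came from naive cells sorted as CD4+ CD44- CD62L+ and then activated through CD3 and CD28 for 3 days. The 2 genotypes and 4 conditions made 8 groups of 2 arrays each. STAT3-deficient cells are labelled with floxed Stat3 and a Cre recombinase named for CD4, which deletes in cells that express CD4 or once did, and cells labelled WT here carry the floxed Stat3 label without Cre. Both genotypes were kept in medium alone, in IL-6 at 10 ug/ml, in TGFb at 2.5 ug/ml, or in both cytokines. The labels do not say how many mice each sample came from, and the sex-linked genes given below differ between the replicates of every group, which were therefore not from the same mouse. Whether groups with the same replicate number share mice is not stated. Precision is limited throughout by how few arrays each group has.

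A ribosome joins a small subunit, which reads the message, to a large subunit, which forms the peptide bond, and most of its proteins are present in a single copy. Messages of most ribosomal protein genes start with a run of pyrimidines, the terminal oligopyrimidine tract, through which the kinase complex mTORC1 controls their translation. T cells enlarge their stock of ribosomes when they are activated, before they divide. IL-6 acts through STAT3, and together with TGFb it drives naive CD4+ T cells towards the Th17 type.

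Start regions are shown for the members on which the results turn, and for 3 core genes beside them. Each runs from 60 bases before to 20 bases after the annotated start, 5′ to 3′ on the gene's strand (RefSeq, GRCm38.p6). Capitals mark CTTTC, a short pyrimidine run, and CCGGAAG, a core of the sites of ETS factors. The first 4 sequences belong to the genes described with TGFb, and the other 3 to a stalk gene, to a small-subunit gene with both motifs, and to Rps6, the substrate of the S6 kinases.
Rpl12, chr2:32961652-32961731, plus strand: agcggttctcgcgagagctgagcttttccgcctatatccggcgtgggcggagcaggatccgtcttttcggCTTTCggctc
Rps25, chr9:44407654-44407733, plus strand: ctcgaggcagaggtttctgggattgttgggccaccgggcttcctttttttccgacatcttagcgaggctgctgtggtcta
Rpl7l1, chr17:46782637-46782716, minus strand: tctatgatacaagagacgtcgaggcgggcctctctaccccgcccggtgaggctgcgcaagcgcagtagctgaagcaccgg
Rps27l, chr9:66946026-66946105, plus strand: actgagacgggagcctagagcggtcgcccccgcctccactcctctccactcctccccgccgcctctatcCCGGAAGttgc
Rplp2, chr7:141447591-141447670, plus strand: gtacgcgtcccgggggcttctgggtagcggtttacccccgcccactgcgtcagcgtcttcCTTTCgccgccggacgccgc
Rps10, chr17:27635225-27635304, minus strand: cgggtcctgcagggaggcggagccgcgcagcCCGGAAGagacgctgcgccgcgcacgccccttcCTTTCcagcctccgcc
Rps6, chr4:86857348-86857427, minus strand: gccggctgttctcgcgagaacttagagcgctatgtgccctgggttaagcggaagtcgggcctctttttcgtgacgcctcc
Neither motif is in these letters for Rps25, Rpl7l1 or Rps6. Promoter windows of 300 bases, from 250 before to 50 after the start, were found for 42 members (50 windows). On both strands of the 300 bases, CTTTC was in 82.0% of the members' windows and in 57.3% of all 32851 windows, and CCGGAAG was in 40.0% against 8.9%. Within the 80 bases and on the gene's strand alone, these shares were 34.0% against 10.3% for CTTTC and 14.0% against 2.4% for CCGGAAG. The palindrome TTCNNNGAA, the pattern that STAT factors read, was in 6.0% of the members' windows of 300 bases and in 8.3% of all windows. No motif lies wholly within another on either strand, though neighbouring matches can share letters, and a match is a description of the sequence only.

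Of the 16 arrays, 3 stood apart or went against their label. WT cells under IL-6, replicate 1, differed from the other 15 arrays in the ribosomal protein genes themselves, as described below. STAT3-deficient cells under TGFb, replicate 1, read Il17a, the Th17 cytokine, at log2 9.55, whereas replicate 2 of that group read it at 6.07, and a library of STAT3-deficient cells under both cytokines, replicate 1, at 6.29. Whether these 2 arrays of STAT3-deficient cells were exchanged was not tested, and values of both groups are given as labelled. Stat3 was at log2 8.40 to 10.46 on the 8 STAT3-deficient arrays and at 10.22 to 12.18 on the 8 WT arrays. The highest of the former, the library labelled STAT3-deficient TGFb replicate 2, lay above WT medium replicate 1 (10.22) and above its own replicate (8.46). Replicate 1 arrays read Xist at 11.91 to 13.21 and replicate 2 arrays at 6.64 to 7.6, so the 2 replicates of each group differed in sex. The 10 T cell markers had a median of log2 11.57. All markers of CD8 T cells (2), B cells (8), dendritic cells (5) and erythroid cells (2) stayed under log2 8 on every array, and so did 10 of 11 myeloid markers, 5 of 6 stromal markers and 2 of 5 NK markers. Klrd1, an NK receptor gene that activated T cells can also express, ranged from 5.0 to 12.85.

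Ribosomal protein messages gave some of the brightest signals on the arrays. Between 54 and 57 of the 200 brightest probe sets belonged to members on 15 arrays, and 31 on the remaining array, WT IL-6 replicate 1. Brightness depends on the probes, so the levels below describe the probe sets and do not rank the messages. For 33 members the mean lay between log2 13.89 and 14.89, and no probe set on any array exceeded 15.18. The other 15 ranged from 4.0 to 12.95. Rpl41, which encodes a very short protein, was the brightest at 14.89, followed by Rps29 at 14.67 and Rplp2 at 14.65. Rps16 (4.0) and the muscle paralog Rpl3l (4.31) stayed under the level minimum of log2 6 and were not tested, which left 46 members among 13007 genes tested. Probe sets that carry pseudogene symbols as well as Rps16 had means of 14.15 and 14.53.

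**Figure D1:**
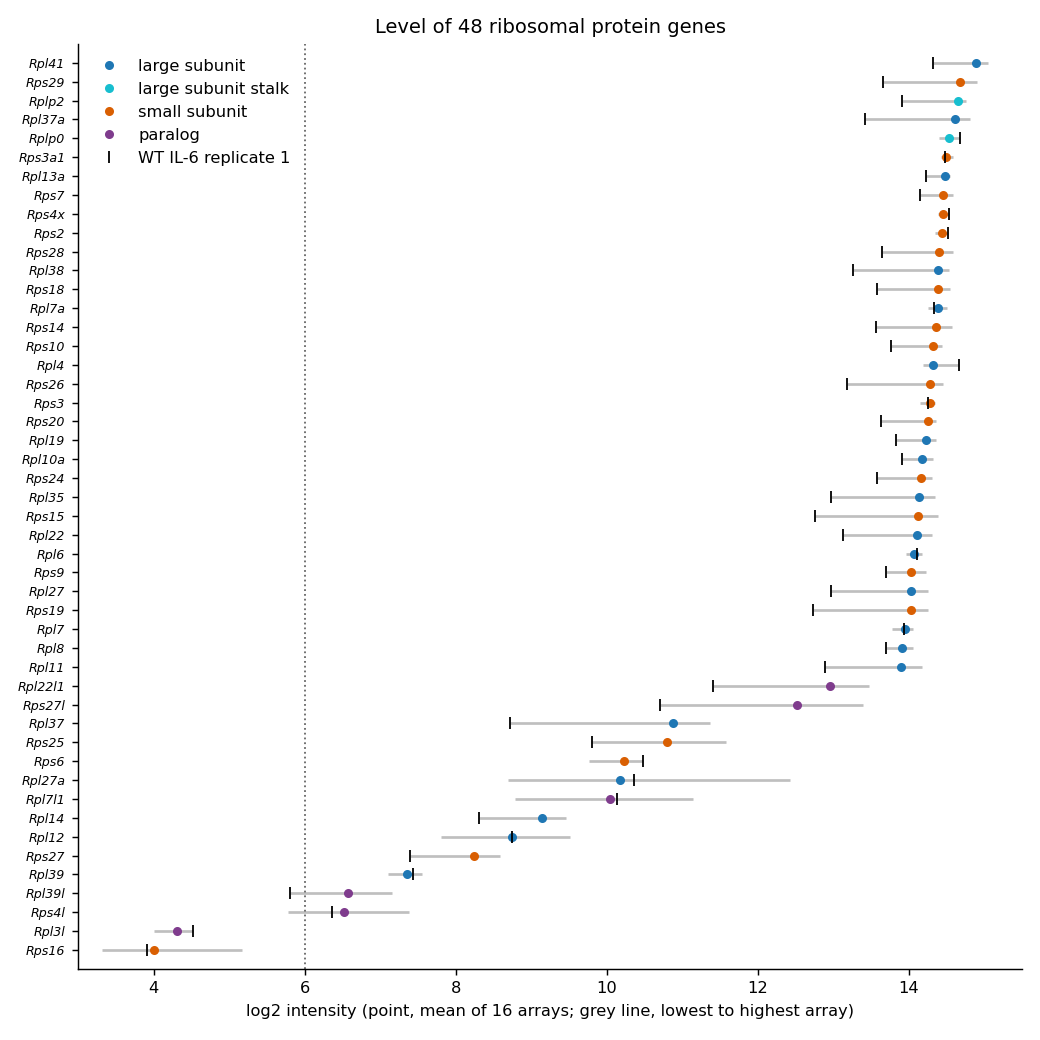
Level of each of the 48 ribosomal protein genes on the log2 intensity axis, with the mean of 16 arrays as a point coloured by role, the lowest to highest array as a grey line, WT IL-6 replicate 1 as a black tick and the level minimum of 6 as a dotted line. In 33 genes the mean lies between 13.89 and 14.89, and in 31 of the 48 the black tick is the lowest array.

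The members varied little over the arrays once a single array was set aside. Their median standard deviation (SD) over the 16 arrays was 0.22 on the log2 scale, against 0.31 for all genes tested. Without WT IL-6 replicate 1 it was 0.07 for the members and 0.30 for all genes, and 27 members had an SD under 0.1. By role, without that array, the median SD was 0.06 in the small subunit, 0.07 in the large subunit, 0.05 in the stalk and 0.36 in the paralogs. Rps4x, the small-subunit gene of the X chromosome, was the steadiest, at 14.38 to 14.53 on all 16 arrays (SD 0.03), followed by Rps2 and Rps3a1 of the small subunit (SD 0.05 each). The widest spread was that of Rpl27a of the large subunit (SD 0.88), followed by the paralog Rpl7l1 (0.66), by Rpl37 of the large subunit (0.63), by the paralog Rps27l (0.63), and by Rps16, untested, at 0.52. Small spreads near the top of the scale can also reflect signals that no longer rise with the amount of message, and the part this played was not tested.

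On WT IL-6 replicate 1 the ribosomal protein genes were lower as a group, but unevenly. The median deviation of the 46 tested members from the median of the other 15 arrays was -0.62 on the log2 scale there, and it lay between -0.09 and 0.05 on each other array. All genes tested had a median deviation of 0.03 on that array, and 11.1% of them were more than 0.5 below. The members fell into a wide range: 14 were more than 1 log2 unit below the other arrays, 11 between 0.5 and 1 below, 6 between 0.2 and 0.5 below, 13 within 0.2, and 2 more than 0.2 above. The other array of the group, WT IL-6 replicate 2, did not show the drop, with a median deviation of 0.01.

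**Figure D2:**
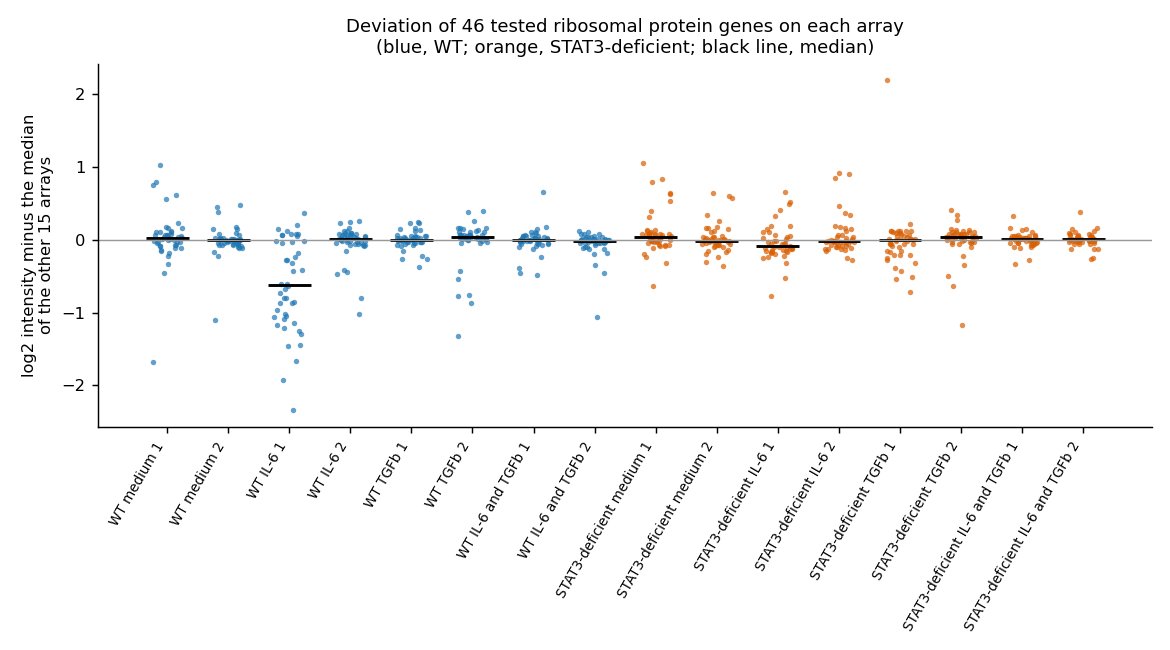
Deviation of the 46 tested ribosomal protein genes on each array from the median of the other 15 arrays, in log2 units, with 1 point per gene and the median as a black line. The median lies at -0.62 on WT IL-6 replicate 1 and between -0.09 and 0.05 on the other 15 arrays.

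In the large subunit, Rpl37 was at log2 8.72 on WT IL-6 replicate 1 and at 11.22 on replicate 2, with 10.35 to 11.37 on all 15 other arrays. Rpl35 was at 12.96 against 14.00 to 14.34, and Rpl37a at 13.42 against 14.63 to 14.80. Rpl11, which binds MDM2 when ribosome assembly fails, was at 12.89 against 13.73 to 14.17. Rpl22, which is needed for the development of alpha-beta T cells, was at 13.13 against 14.07 to 14.30. In all of these genes the array lay outside the range of the other 15. Rpl4 went the other way, at 14.66 against 14.18 to 14.41, and Rpl6 (14.11 against 13.96 to 14.17) lay within the range of the others. The stalk was split, with Rplp2 0.80 below the median of the other arrays and Rplp0, its anchor protein, 0.15 above it.

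In the small subunit, Rps15 was at 12.76 on WT IL-6 replicate 1 and at 13.98 to 14.38 elsewhere. Rps19, the gene most often mutated in Diamond-Blackfan anaemia, was at 12.73 against 13.86 to 14.25. Rps26 was at 13.18 against 14.30 to 14.45, and Rps29 at 13.65 against 14.67 to 14.90. On the other side, Rps3 (14.25), Rps2 (14.52), Rps3a1 and Rps4x deviated by less than 0.2. Among the paralogs, Rps27l was at 10.70 against 12.12 to 13.39, and Rpl22l1 at 11.40 against 12.45 to 13.47, whereas Rpl7l1 deviated by 0.05.

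**Figure D3:**
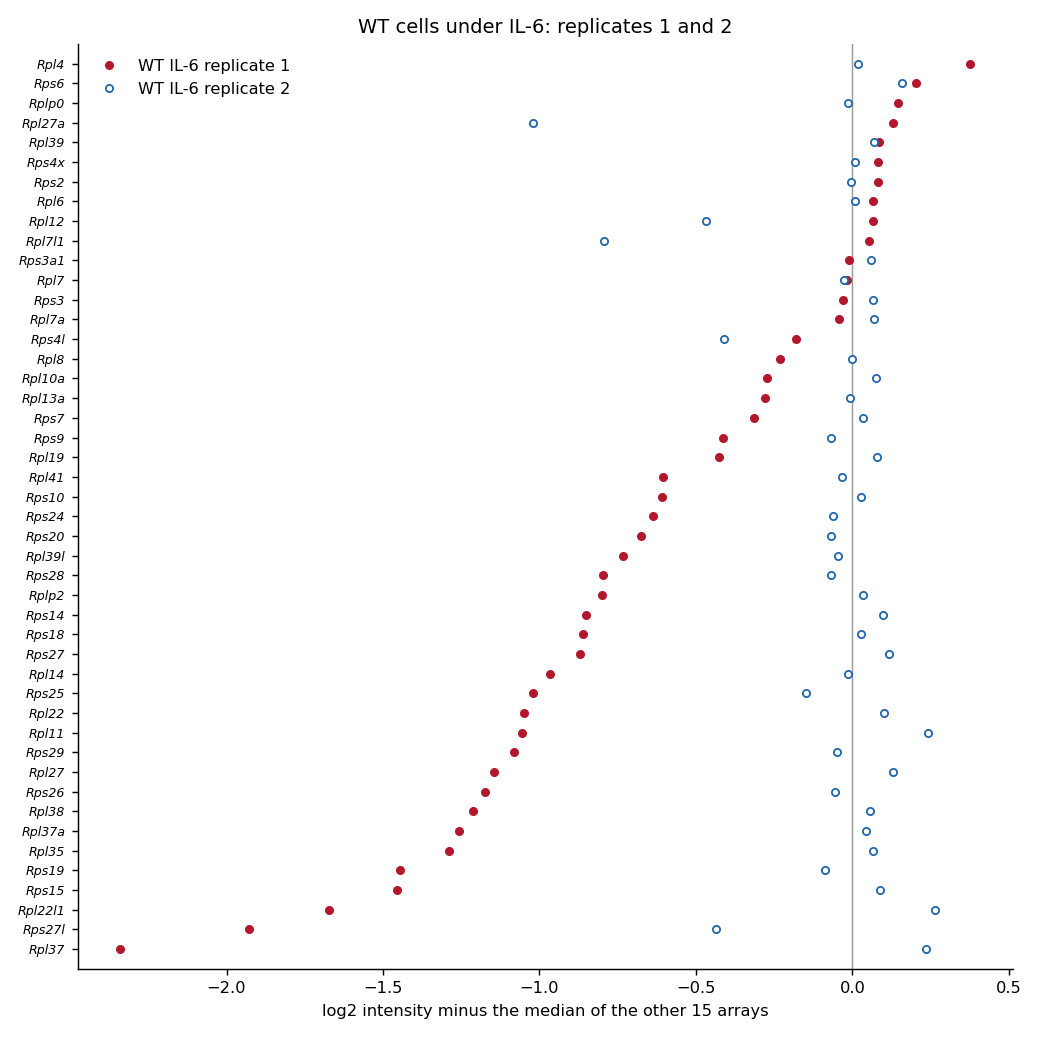
Deviation of each tested ribosomal protein gene on WT IL-6 replicate 1 (filled red) and replicate 2 (open blue) from the median of the other 15 arrays, in log2 units, ordered by replicate 1. Replicate 1 runs from -2.34 for Rpl37 to 0.38 for Rpl4, and most genes of replicate 2 lie near 0.

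Other genes and measures moved on the same array. Of 72 subunits of the respiratory chain and ATP synthase, 55 were at least 0.5 lower there (median deviation -1.40, against -0.19 to 0.14 on the other arrays). Of 76 mitochondrial ribosomal proteins 46 were lower by that much (median -0.75), and of 7 subunits of the cytosolic chaperonin none was (median 0.36). Over all genes tested this share was 11.1% on this array and 2.9% to 21.5% on the others. Between the Actb controls, the 5′ probe set minus the 3′ one, a measure that falls when the labelled RNA is short, gave -0.11 on this array, the highest of the 16, with -0.50 to -0.11 over replicate 1 arrays and -1.71 to -0.88 over replicate 2 arrays. The part these played in the ribosomal protein values was not tested. Where a gene had a second probe set with several symbols, that probe set could deviate differently. The Rpl12 member probe set deviated by 0.07 on this array, and the 2 bright probe sets that read Rpl12 with its copies deviated by -0.59 and -0.72. For Rpl27a the values were 0.13 and -0.49, and for Rpl39 0.09 and -0.45, so the dim probe sets of these genes did not show what their bright ones did. For Rps6 the member deviated by 0.20 and the 2 brightest other probe sets by -0.04 and -0.02, while dimmer ones ran down to -0.63.

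Loss of STAT3 was compared first under IL-6, the condition in which STAT3 is activated. No member passed the test, in limma with Benjamini-Hochberg adjustment over all genes and a threshold of 0.05. Over all genes tested 3.29% were called in this comparison (73 higher and 355 lower in STAT3-deficient cells). At an unadjusted p under 0.05 there were 7 members. The members' median difference was 0.34 on the log2 scale, with 34 of 46 above 0, and the median over all genes was -0.03. Without WT IL-6 replicate 1 the members' median was -0.07 with 14 of 46 above 0, no member passed, and 1.64% of all genes were called. The group's upward shift in STAT3-deficient cells thus did not remain without this WT array. Of the 73 genes called higher under IL-6, 10 were also called without it, and of the 355 called lower, 135 were.

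Rps25 of the small subunit, which viral internal ribosome entry sites need, had the lowest adjusted p. It was at log2 9.80 and 10.67 in WT cells under IL-6 and at 11.08 and 11.58 in STAT3-deficient cells, so the groups did not overlap. The difference was 1.10 (SE 0.27, adjusted p = 0.0546 in limma), and without WT IL-6 replicate 1 it was 0.66 (SE 0.25, adjusted p = 0.19). The p53-induced paralog Rps27l was at 10.70 and 12.20 in WT cells and at 13.04 and 12.92 in STAT3-deficient cells. Its difference was 1.53 (SE 0.39, adjusted p = 0.0603), and 0.78 (SE 0.30, adjusted p = 0.188) without that array. With the replicate number as a block, both genes passed (adjusted p = 0.0223 for Rps25 and 0.0349 for Rps27l), among 2.38% of all genes called higher. With the block and without that array, neither did (0.131 and 0.169). Rps6 lay lower in STAT3-deficient cells under IL-6, at 9.76 and 10.13 against 10.48 and 10.43, a difference of -0.51 (SE 0.19, adjusted p = 0.155 in limma). Both Rps6 (mean 10.23) and Rps25 (mean 10.8) were read through dim probe sets. The brightest probe sets that read Rps6 with a pseudogene (means 14.94 and 14.69) differed between genotypes by -0.02 and -0.05, pooled over conditions. The bright one that reads Rps25 with its copies differed by 0.15, pooled likewise. Their differences under IL-6 alone are not given here.

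**Figure D4:**
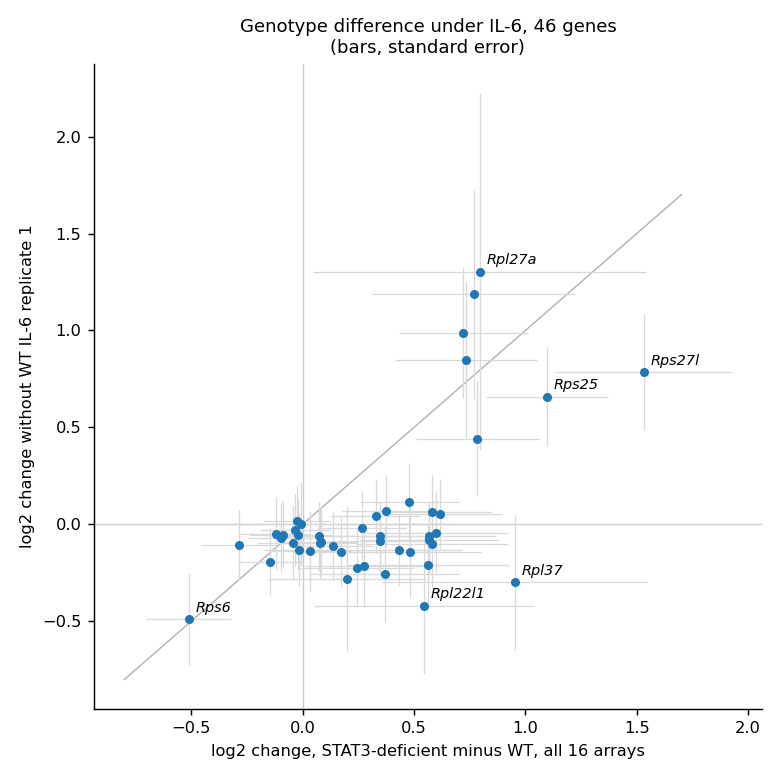
Difference between STAT3-deficient and WT cells under IL-6 for the 46 tested ribosomal protein genes, in log2 units with standard errors, from all 16 arrays (horizontal) and without WT IL-6 replicate 1 (vertical), with the line of equality. Most genes lie right of 0 on the horizontal axis (median 0.34) and close to 0 on the vertical axis (median -0.07).

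In the other conditions no member passed the test between the genotypes. Under IL-6 with TGFb no member passed and none had an unadjusted p under 0.05, while 1.19% of all genes were called (1.43% without WT IL-6 replicate 1, again with no member), and the members' median difference was 0.02 (-0.22 to 0.44). In TGFb alone and in medium no gene of any kind passed (0% called), no member had an unadjusted p under 0.05, and the members' medians were -0.02 and 0.01. Stat3 itself was not called there, at differences of -2.52 in TGFb and -2.05 in medium (SE 0.58 each). The counts of 0 therefore do not show that the genotypes were alike. Within 0.2 of zero lay 41 of 46 members under both cytokines, 41 in TGFb and 44 in medium, against 43.7%, 59.6% and 79.9% of all genes. The median standard error of a member's difference was 0.23 with all arrays, so differences of that size could not be resolved. It was 0.16 without WT IL-6 replicate 1, an array that is in none of these comparisons but enters the spread that all groups share. Over all 4 conditions pooled, 0 members passed in limma and 3 had an unadjusted p under 0.05, with 0.969% of all genes called. These 3 were Rps25 (0.42, SE 0.14, adjusted p = 0.177), Rps27l (0.49, SE 0.20, adjusted p = 0.261) and Rpl27a (0.89, SE 0.37, adjusted p = 0.278). Rpl27a passed without the library labelled STAT3-deficient TGFb replicate 2 (1.21, adjusted p = 0.0493).

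Rpl27a was the most variable member. In WT cells its 2 arrays read log2 8.69 and 9.26 in medium, 10.36 and 9.34 in IL-6, 10.46 and 9.58 in TGFb, and 10.89 and 9.30 in both. In STAT3-deficient cells the values were 10.77 and 10.01 in medium, 10.89 and 10.41 in IL-6, 12.43 and 9.86 in TGFb, and 10.40 and 10.23 in both. The highest value came from STAT3-deficient TGFb replicate 1, the array whose Il17a level went against its label, and the genotypes overlapped in TGFb and in both cytokines. The bright probe set that reads Rpl27a with several copies lay between 14.31 and 14.43 on the 15 arrays other than WT IL-6 replicate 1.

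IL-6 was also compared with medium within each genotype. In WT cells 0 members passed in limma, 6 had an unadjusted p under 0.05, and 0.284% of all genes were called. The members' median was -0.36, with 35 of 46 below 0. It was 0.03 without WT IL-6 replicate 1, with 29 above 0. Leaving out WT IL-6 replicate 2 instead, so that the other array alone stood for the group and was taken to vary like the other groups, called 14 members lower, with 2.31% of all genes called lower. In the same way it called 16 members higher between the genotypes under IL-6, with 2.4% of all genes called higher. In STAT3-deficient cells no member passed, none had an unadjusted p under 0.05, no gene was called (0%), and the members' median was -0.03. The genotype by IL-6 interaction, pooled over TGFb, called 0 members in limma (3 at an unadjusted p under 0.05, 0.354% of all genes called), with adjusted p = 0.323 for Rps25 and 0.346 for Rps27l. Pooled over genotype and TGFb, IL-6 gave 0 called members, 0 at an unadjusted p under 0.05, and 0.0538% of all genes called. IL-6 with TGFb against medium called 0 members in WT cells (2 at an unadjusted p under 0.05, 3.00% of all genes called) and 0 in STAT3-deficient cells (2 at an unadjusted p under 0.05, 0.138% of all genes called).

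TGFb moved 1 member past the threshold. Pooled over genotype and IL-6, 8 arrays with TGFb were compared with 8 without, and Rpl12 was called lower, 1 of 46 members. Among all genes 3.79% were called lower and 5.46% higher. Rpl12 encodes a protein at the base of the stalk, where it helps factors to bind. In WT cells it was at log2 9.47 and 9.13 in medium, 8.74 and 8.2 in IL-6, 8.41 and 7.81 in TGFb, and 8.67 and 8.65 in both cytokines. In STAT3-deficient cells it was at 9.47 and 9.25 in medium, 8.87 and 9.52 in IL-6, 8.47 and 8.04 in TGFb, and 8.63 and 8.67 in both. All 8 arrays with TGFb lay under all 4 medium arrays, while WT cells under IL-6 without TGFb lay close to those with it. Pooled, the difference was -0.66 (SE 0.14, 1.58-fold lower, adjusted p = 0.0161 in limma). Leaving out WT IL-6 replicate 1 gave -0.60 (SE 0.15, adjusted p = 0.0375). Without the library labelled STAT3-deficient TGFb replicate 1 or replicate 2 it was -0.72 and -0.61 (adjusted p = 0.0159 and 0.0288). Without 3 arrays (WT IL-6 replicate 1 and both STAT3-deficient replicate 1 arrays with TGFb) the call was lost, at -0.64 and adjusted p = 0.0674, with 1.25% of all genes called lower.

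The call rests on a dim probe set of Rpl12, and its bright ones were not called. The 2 bright probe sets that read Rpl12 together with its copies had pooled TGFb differences of 0.12 (SE 0.10, adjusted p = 0.568) and 0.13 (SE 0.11, adjusted p = 0.561), from a fit of all probe sets. Setting WT IL-6 replicate 1 aside, they were 0.05 and 0.04. Which transcripts each probe set reads was not examined, and these other probe sets were looked up after the member's values were seen.

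Rps25, Rpl7l1 and Rps27l also lay lower with TGFb but did not pass. In WT cells their means with IL-6 alone were below medium too. Rps25 was at 11.29 and 11.15 in WT medium, 9.8 and 10.67 in IL-6, and 10.56 and 10.29 in TGFb. In STAT3-deficient cells it was at 11.30 and 11.28 in medium, 11.08 and 11.58 in IL-6, and 10.5 and 10.48 in TGFb. With TGFb the differences from medium were -0.79 in WT and -0.80 in STAT3-deficient cells (SE 0.27 each, adjusted p = 0.322 and 0.252 in limma). Pooled, Rps25 differed by -0.43 (SE 0.14, adjusted p = 0.0741), and without WT IL-6 replicate 1 by -0.54 (SE 0.11, adjusted p = 0.0185), so that it then passed beside Rpl12, among 2.57% of all genes called lower. The bright probe set that reads Rps25 with its copies had a pooled difference of 0.15 (SE 0.15, adjusted p = 0.647), and of 0.00 (SE 0.08) without that array. As for Rpl12, the value of the dim probe set was negative and that of the bright one was not.

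Rpl7l1, a paralog of Rpl7 found in precursors of the large subunit, was at 11.12 and 10.10 in WT medium, 10.14 and 9.31 in IL-6, 9.73 and 8.78 in TGFb, and 9.87 and 10.00 in both. In STAT3-deficient cells it was at 11.14 and 10.36 in medium, 10.42 and 10.56 in IL-6, 9.89 and 8.92 in TGFb, and 10.09 and 10.16 in both. Each TGFb array lay below the medium array of its own replicate number. Pooled, the difference was -0.71 (SE 0.23, adjusted p = 0.0754 in limma), and with the replicate block it passed (adjusted p = 0.0158). Its other probe sets had pooled differences of -0.51 and -0.41. Rpl7 itself was at 0.06, and its other probe sets at 0.07 and 0.10.

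Rps27l was at 13.30 and 12.73 in WT medium, 10.7 and 12.2 in IL-6, and 12.55 and 12.20 in TGFb. In STAT3-deficient cells it was at 13.39 and 12.90 in medium, 13.04 and 12.92 in IL-6, and 12.12 and 12.41 in TGFb. Its pooled difference was -0.27 (SE 0.20, adjusted p = 0.457 in limma), and -0.46 (SE 0.13, adjusted p = 0.0635) without WT IL-6 replicate 1, with -0.20 and -0.21 for its other probe sets over all 16 arrays. With the replicate block 3 members were called lower (Rpl12, Rpl7l1 and Rps25) among 7.22% of all genes. With the block and without WT IL-6 replicate 1, Rps27l joined them (adjusted p = 0.029), among 5.62% of all genes. The members' median pooled difference was 0.09 over all arrays and 0.02 without WT IL-6 replicate 1, with 36 and 29 of 46 above 0. Leaving out WT IL-6 replicate 2 called 12 members with TGFb, 10 of them higher, with 13% of all genes called.

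**Figure D5:**
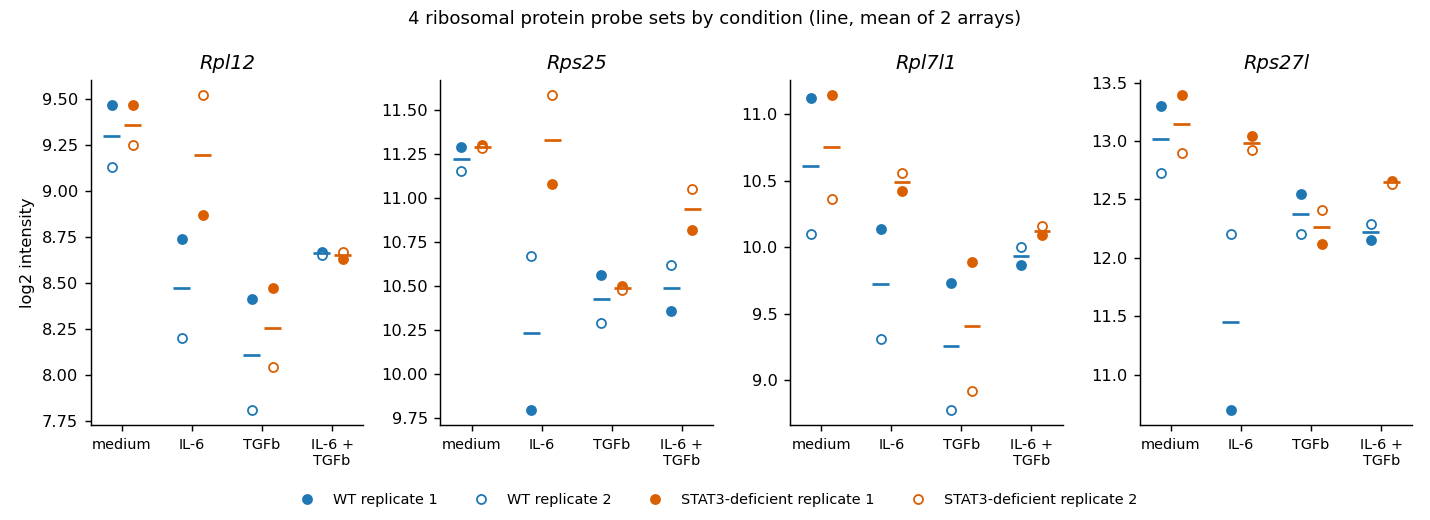
Log2 intensity of the Rpl12, Rps25, Rpl7l1 and Rps27l probe sets in each condition for WT (blue) and STAT3-deficient (orange) cells, with replicate 1 filled, replicate 2 open and the mean of 2 arrays as a line; the vertical axes differ and do not start at 0. In Rpl12 all 8 arrays with TGFb lie at 8.67 or lower, and the 4 medium arrays at 9.13 or higher.

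Taken within a genotype, TGFb against medium called 0 members in WT cells in limma (3 at an unadjusted p under 0.05, 0.223% of all genes called) and 0 in STAT3-deficient cells (4 at an unadjusted p under 0.05, 0.354% of all genes called). Rpl12 differed by -1.20 in WT and by -1.11 in STAT3-deficient cells (SE 0.29 each, adjusted p = 0.181 and 0.136). Rpl7l1 differed by -1.35 and -1.34 (SE 0.46 each, adjusted p = 0.31 and 0.246). For both genes the values in the 2 genotypes lay within 1 standard error of each other, and the 2 comparisons share no array.

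Among the roles, the paralogs had the largest median spread. Of 6 on the array 5 were tested, and none passed in any of the 14 comparisons with all arrays and no block. Rpl22l1, which can replace Rpl22 in the ribosome, was at 12.61 and 13.22 in WT medium and at 12.45 and 12.99 in STAT3-deficient medium, with replicate 2 higher in both. Its pooled TGFb difference was 0.45 (SE 0.25, adjusted p = 0.303 in limma), and 0.21 without WT IL-6 replicate 1. Rps4l, a copy of Rps4x, had a pooled TGFb difference of -0.44 (SE 0.16, adjusted p = 0.114) around a mean of 6.52, near the level minimum. Rpl39l, known from testis, was at 5.81 to 7.15. It differed between genotypes under IL-6 by 0.78 (SE 0.28, adjusted p = 0.136), and by 0.44 without WT IL-6 replicate 1.

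Of 14 ribosomal proteins listed for known roles in T cells or signalling, 11 were tested, and none passed in any comparison with all arrays and no block. Their median difference between the genotypes under IL-6 was 0.08, and -0.10 without WT IL-6 replicate 1. Rps3, a subunit of NF-kB complexes as well as of the ribosome, kept between 14.14 and 14.34 on all 16 arrays. Rps6 ranged from 9.76 to 10.48.

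Among genes around the ribosomal proteins, a group that builds ribosomes was lower with TGFb, and in WT cells also with IL-6 alone. Of 56 genes of ribosome assembly and rRNA transcription, 18 were called lower with TGFb and none higher, with a median of -0.59 against -0.01 over all genes. There were 12 without WT IL-6 replicate 1, with a median of -0.47, among 2.57% of all genes called lower, and 34 with the replicate block, among 7.22%. Against medium, the median of the 56 genes with TGFb alone was -0.88 in WT and -0.96 in STAT3-deficient cells. With IL-6 alone it was -0.61 in WT cells (49 below 0) and -0.09 in STAT3-deficient cells (43 below 0). The WT value was -1.11 without WT IL-6 replicate 1, which left 1 array. None of the 56 was called against medium with either cytokine alone. Of the markers of other cell types, Klrd1 (3.61 higher, adjusted p = 0.00102), Mpeg1 of myeloid cells (1.29 higher, adjusted p = 0.0496) and Ms4a1 of B cells (0.70 lower, adjusted p = 0.0123) were called with TGFb too. Their lists did not move as a whole: 1 of 3 NK, 3 of 6 myeloid and 2 of 4 B cell markers tested lay above 0 with TGFb, and the rest below. Mpeg1 was not called without WT IL-6 replicate 1. Mpeg1 reached at most 8.15 and Ms4a1 at most 7.4 on any array, and the part of other cells in these changes was not tested. Rrp12, which acts in export of pre-ribosomes, fell by 1.01 on the log2 scale (SE 0.18, adjusted p = 0.00592 in limma). Rrp15 fell by 1.00 (adjusted p = 0.00991), Rpf2, which helps to place the 5S particle, by 0.81 (adjusted p = 0.00704), and Polr1b, a subunit of RNA polymerase I, by 0.78 (adjusted p = 0.036). Polr1b did not pass without WT IL-6 replicate 1 (adjusted p = 0.0661). Under IL-6 the median difference of the 56 genes, STAT3-deficient minus WT, was 0.59, with 50 above 0, against -0.03 over all genes. Without WT IL-6 replicate 1, which left 1 WT array under IL-6, their median was 1.07. Their median deviation from the other 15 arrays was 0.27 on WT IL-6 replicate 1 and -0.69 on replicate 2. On the STAT3-deficient IL-6 arrays it was 0.29 and 0.60, so the replicate 1 arrays of the genotypes lay close together. Of the 56, 3 were called higher in STAT3-deficient cells, among 0.561% of all genes, and 6 with the replicate block, among 2.38%. The 3 were the box H/ACA proteins Nop10 (1.68), Nhp2 (1.66) and Gar1 (1.44), of which Gar1 alone of the 3 passed without WT IL-6 replicate 1 (adjusted p = 0.0313, against 0.0943 and 0.0705).

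Few translation factors and regulators passed the test with TGFb. Of 24 factors and partners whose messages also start with a terminal oligopyrimidine tract, 1 was called with TGFb, Vim, which rose by 1.01 (SE 0.19, adjusted p = 0.00836 in limma), and the list's median was 0.02. Of 22 initiation factors and regulators 1 was called, Larp1, which binds these messages, and it fell by 0.57 (SE 0.14, adjusted p = 0.0312), a call that was lost without WT IL-6 replicate 1 (adjusted p = 0.0637). That list's median was -0.21 with 19 of 22 below 0, and with the replicate block 3 were called lower and 1 higher. In the mTORC1 and S6 kinase list, 1 of 23 passed, Rragd, a GTPase that brings mTORC1 to the lysosome, which rose by 2.22 (adjusted p = 0.0107), and with the block 3 were called higher. In the p53 list, 1 of 10 passed, Trp53inp1, which rose by 1.71 (adjusted p = 0.0078). The p53 list's median was -0.28 with 7 of 10 below 0, and with the block 3 were called lower and 1 higher. Beside these counts stand the 3.79% of all genes called lower and 5.46% called higher with TGFb. Under IL-6, with WT IL-6 replicate 1 included, Vim (-2.14) and Sesn3 of the mTORC1 list (-1.84) were called lower in STAT3-deficient cells. The B cell marker Ms4a1 was called higher there (1.56), and 3.29% of all genes were called either way. Nkg7 was called higher in STAT3-deficient cells under both cytokines (5.55, among 1.19%). In WT cells Klrd1 was called higher under both than in medium (6.77, among 3%).

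The replicate number went with the level of some members. Replicate 2 was higher than replicate 1 in all 8 groups for Rpl11, Rpl14, Rpl22, Rpl27, Rpl7a and Rps14, and lower in all 8 for Rpl7. In the fit with the block, the replicate difference passed for Rpl14 (0.42 higher in replicate 2, SE 0.13, adjusted p = 0.0415 in limma), for Rpl7l1 (-0.53, SE 0.17, adjusted p = 0.0484) and for Rpl27a (-0.86, SE 0.28, adjusted p = 0.0498). In that test 19.8% of all genes were called. Without WT IL-6 replicate 1 none of the 3 passed (adjusted p = 0.0741, 0.0885 and 0.0838), with 18.6% of all genes called. The labels give no meaning for the numbers, and the sex-linked genes and the Actb difference given above part the arrays in the same way, so these cannot be told apart.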

How the data were processed

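RNA of 16 samples was hybridised to 1 array each. Probe values were combined by the authors with RMA (submitters' processing notes), whose version is not given in the sources used here. What was deposited are intensity values on a linear scale, all whole numbers, and how RMA values became linear is not given. Log2 was taken with no pseudocount and the deposited normalization was kept. The median intensity per array was 66 to 73.

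Of 45101 probe sets, 64 controls were left out and 34945 carry 1 symbol. Genes that reached log2 6 on at least 2 arrays were tested (13007). All 16 arrays were fitted in limma 3.58.1 (R 4.3.3) with 8 group means, and 14 comparisons were made and tested from both sides, with p-values adjusted by Benjamini-Hochberg over those 13007. Named were called members, paralogs, members with known roles, and those with the highest and lowest means and the largest and smallest SDs. Members with the largest pooled differences and Stat3 were named too. Of each other list up to 4 called genes were named, though not for every comparison. The members and lists were chosen with earlier results of these data known. The fit was tested on simulated data.

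Replicate numbers, from the sample titles, pair the samples: same-numbered arrays deviated together in 28 of 28 pairs of groups (r = 0.11 to 0.86 across genes). Blocked values stand beside the counts of called members that they move by over 1.5 times. Most shares of all genes called are given without the block. In each comparison the block raised the count over all genes or left it at 0. Between the genotypes under IL-6 it called 309 genes higher and 1181 lower, against 73 and 355 without it. The alternatives were the block, the filter, further quantile normalization, median centring, array weights, a trended robust prior, other choices of probe set, only the arrays compared, and leaving out arrays. Figures were drawn with matplotlib 3.10.9.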

Additional observations from a re-analysis of the deposited data

How the results depend on the processing

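Of the counts of called members under an alternative, 238 stayed within 1.5 times of the value reported and 16 moved, and no named value that had been called changed direction. For the genotype difference under IL-6 the count of 0 became 2 with the replicate block and 1 with further quantile normalization, and 0 to 16 when each array was left out in turn. The 16, all higher, came from leaving out WT IL-6 replicate 2, with 2.40% of all genes called higher. The same left-out array gave the highest count for IL-6 against medium in WT cells (0 to 14), for the genotypes pooled (0 to 2), where leaving out STAT3-deficient TGFb replicate 2 gave 1, and for the interaction (0 to 1). For TGFb pooled the count of 1 became 3 with the block, 2 without probe sets whose names end in x_at or s_at, and 1 to 12 with each array left out (12 without WT IL-6 replicate 2, and 2 without STAT3-deficient TGFb replicate 1, WT IL-6 replicate 1, WT TGFb replicate 1 or WT medium replicate 2). The block moved no other count of called members by over 1.5 times. Alternatives added after seeing the data gave 4 with the block and without WT IL-6 replicate 1 together, and 0 without 3 arrays. The members' median under IL-6 was 0.62 between genotypes without WT IL-6 replicate 2. Of the counts over all genes, 146 stayed within 1.5 times and 108 did not. With 2 arrays a group, the median standard error of a member's difference between 2 groups was 0.23.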

Other observations

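Probe sets that carry several symbols, 1 of them a ribosomal protein, were outside the comparisons above, and they cover further genes of the family. Of 110 such probe sets 105 had a mean of log2 6 or more. On WT IL-6 replicate 1, 62 of these 105 lay at least 0.5 below the median of the other arrays and 16 within 0.2, with a range from -2.77, for a probe set of Rps21 of the small subunit, to 0.96. Of the 93 member probe sets with 1 symbol at that level, 56 lay at least 0.5 below. Probe sets of Rpl36 of the large subunit were among the lowest there, at -2.36 and -2.30, and the probe set that reads Rps27 with a copy was at -1.71. The probe sets were chosen by symbol, and the examples after their values were seen.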
